A study of Caenorhabditis elegans with 2 samples.

Results

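The RNAs and proteins of spliced leader trans-splicing were examined in a seCLIP-seq comparison of both forms of CAR-1 in Caenorhabditis elegans. Members were the genes named sls-1 or sls-2 with a copy number (the SL1 and SL2 RNAs), snr-1 to snr-7 (the Sm proteins), sna-1 and sna-2 (proteins of the SL snRNP), and the listed peaks that overlap a member's locus by at least 1 base. They were 36 of the 41560 gene names in the expression tables: 9 SL1 RNA names, 18 SL2 RNA names, 7 Sm protein genes and 2 SL snRNP protein genes. The members were chosen by name, not by a measured value, though with earlier results of these data known.

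Trans-splicing joins a short leader, donated by an SL RNA, to the 5′ end of many nematode messenger RNAs. SL1 is mostly placed on the first or only gene of a transcription unit, and SL2 on downstream genes of operons, where it separates the messages of one long precursor. Each SL RNA carries the leader at its 5′ end, followed by an intron-like part with a site bound by the ring of Sm proteins, the same ring that sits on the U snRNAs of the spliceosome. SNA-1 and SNA-2 are further proteins found on SL RNAs in nematodes.

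seCLIP-seq crosslinks RNA to protein in the sample, pulls the protein down and sequences the attached RNA from a single-end library. CAR-1, a member of the LSm14 family, binds RNA and sits in germline P granules and in processing bodies. The library CAR-1(dSm) came from strain CZ26430 and the library CAR-1(FL) from strain CZ25180, and both were pulled down with GFP-trap, a bead-bound antibody fragment against GFP. What was altered in the dSm form, the age and growth of the animals and any other allele of either strain were not stated in the labels. Each form had 1 library, with no replicate to give a spread, so no test was made here and each difference describes this pair of libraries only. No unbound or input library was used here, so more of an RNA in the animals, more cells that make it and more of it pulled down cannot be told apart.

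The deposited bounds of the FPKM values correspond to 369072 fragments on genes in CAR-1(dSm), against 233959 in CAR-1(FL). The peak values correspond to total reads of 5470400 in CAR-1(dSm), against 4022000 in CAR-1(FL). An rRNA name, rrn-2.1, held 34.1% of the fragments in CAR-1(dSm), against 25.9% in CAR-1(FL). Of the marker lists of tissues, those of germline, epidermis, muscle and intestine had medians between −0.56 and −0.06 on the log2 scale defined below. The neuron list had 1.06, from 3 measured genes, which is the value of egl-3. That gene held 34.0 fragments in CAR-1(dSm), against 4.58 in CAR-1(FL). The others measured, snb-1 and unc-31, held 5 and 0.30 in CAR-1(dSm), against 0 and 0.08 in CAR-1(FL). Summed FPKM over the 5 neuron genes was 9.80 in CAR-1(dSm), against 1.93 in CAR-1(FL). Of these 5, snb-1 and rab-3 were listed at 0 in CAR-1(FL). Whether the neuronal difference has a part in the values below was not tested.

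The SL RNAs were recovered more with CAR-1(dSm), while the Sm protein messages showed no common direction. Differences are log2(FPKM + 1) in CAR-1(dSm) minus that in CAR-1(FL), where FPKM is fragments per kilobase of transcript, scaled to the mapped fragments of the library, over genes that reached an FPKM of 1 in 1 of the libraries or both. Of the 28 members measured, 17 lay 1 log2 unit or more above their CAR-1(FL) value, as did 15.2% of all 4361 measured genes. Another 2 members, both Sm protein genes, lay 1 unit or more below it, as did 14.3% of all measured genes. The bounds of both libraries lay apart, on the side of CAR-1(dSm), for 12 members, against 3.03% of all measured genes. Among these 12, sls-1.6 and sls-1.12 draw nearly all of their fragments from overlapping rows of the same copy, so they are not independent. The FPKM differences of both names overstate a difference scaled to depth, as set out below, and sls-1.12 is also among the 17. No member had bounds apart on the side of CAR-1(FL), against 2.82% of all measured genes. The median difference of the measured members was 1.11 and that of all measured genes was −0.07.

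The remaining 8 members were not measured by this rule. Of these, 6 were listed at 0 in both libraries: sls-1.1, sls-1.5, sls-1.10, sls-2.3, sls-2.6 and sls-2.13. The other two, sna-1 and sna-2, were below an FPKM of 1 in both libraries.

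FPKM of an RNA of about the length of a read is not on the same footing as that of a messenger RNA. An implied fragment was worth 95.1 FPKM on sls-2.4 in CAR-1(dSm), against 135 FPKM in CAR-1(FL), and 0.429 FPKM on snr-2 in CAR-1(dSm), against 0.658 FPKM in CAR-1(FL). Levels are therefore compared between libraries, or between SL2 genes of nearly equal length, and not between SL RNAs and protein genes.

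The 18 SL2 RNA genes lie singly or in small groups on chromosomes I to IV and are 106 to 114 bases long. Of the 15 that were measured, 12 were higher in CAR-1(dSm) by 1 log2 unit or more, 3 lay within 1 unit, and the median difference was 1.61. Bounds were apart for 10 of them. Together the SL2 names held 1074 fragments in CAR-1(dSm), 0.291% of all fragments, and 246 in CAR-1(FL), 0.105%. The share was 2.77-fold higher in CAR-1(dSm).

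The SL2 gene with the highest value in both libraries was sls-2.4, at chromosome I, 4172208 to 4172316, in the coordinates of the deposited tables (ce10, per the submitters' processing notes). It had an FPKM of 19793 (bounds 17050 to 22537) in CAR-1(dSm), against 6227 (4392 to 8062) in CAR-1(FL), a 3.18-fold difference. Its next neighbour in CAR-1(dSm), sls-2.8 (chromosome III, 12250364 to 12250473), had 15731 (13373 to 18089) in CAR-1(dSm), against 5144 (3519 to 6769) in CAR-1(FL). The bounds of sls-2.4 and sls-2.8 overlapped within each library, so their order is not resolved.

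sls-2.1 had an FPKM of 12406 in CAR-1(dSm), against 4670 in CAR-1(FL), and sls-2.2 had 12152 in CAR-1(dSm), against 5578 in CAR-1(FL). Both stood apart between the libraries, at 2.66-fold and 2.18-fold. sls-2.9 had 7782 in CAR-1(dSm), against 3632 in CAR-1(FL), with bounds of 6150 to 9414 and 2259 to 5005 that also lay apart. Within CAR-1(FL) the bounds of sls-2.1, sls-2.2, sls-2.4 and sls-2.8 overlapped, so their order there is not resolved.

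A wider gap was seen for sls-2.12 (chromosome IV, 5261905 to 5262013), with an FPKM of 7951 (6309 to 9594) in CAR-1(dSm), against 1168 (389 to 1946) in CAR-1(FL). That is a 6.81-fold difference, resting on 93.7 implied fragments in CAR-1(dSm), against 9 in CAR-1(FL). sls-2.16 had 7626 in CAR-1(dSm), against 1789 in CAR-1(FL), 4.26-fold. In CAR-1(dSm) the bounds of sls-2.9, sls-2.12 and sls-2.16 overlapped. In CAR-1(FL) sls-2.12 was below sls-2.9 (2259 to 5005) with bounds apart. The CAR-1(FL) value of sls-2.16 (797 to 2781) was also below that of sls-2.9, but their bounds overlapped.

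sls-2.11 had an FPKM of 3145 in CAR-1(dSm), against 877 in CAR-1(FL), and sls-2.15 had 2795 in CAR-1(dSm), against 980 in CAR-1(FL), both with bounds apart. sls-2.18 had 4056 (2766 to 5346) in CAR-1(dSm), against 2333 (1117 to 3548) in CAR-1(FL), with bounds that overlapped. The 5 genes sls-2.5, sls-2.7, sls-2.10, sls-2.14 and sls-2.17 each held 1 implied fragment in CAR-1(FL), so their folds carry little weight. Of these, sls-2.7 had 1015 in CAR-1(dSm), against 130 in CAR-1(FL), and sls-2.17, the only SL2 gene lower in CAR-1(dSm), had 89.7 in CAR-1(dSm), against 138 in CAR-1(FL) on 1 fragment in each.

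**Figure D1:**
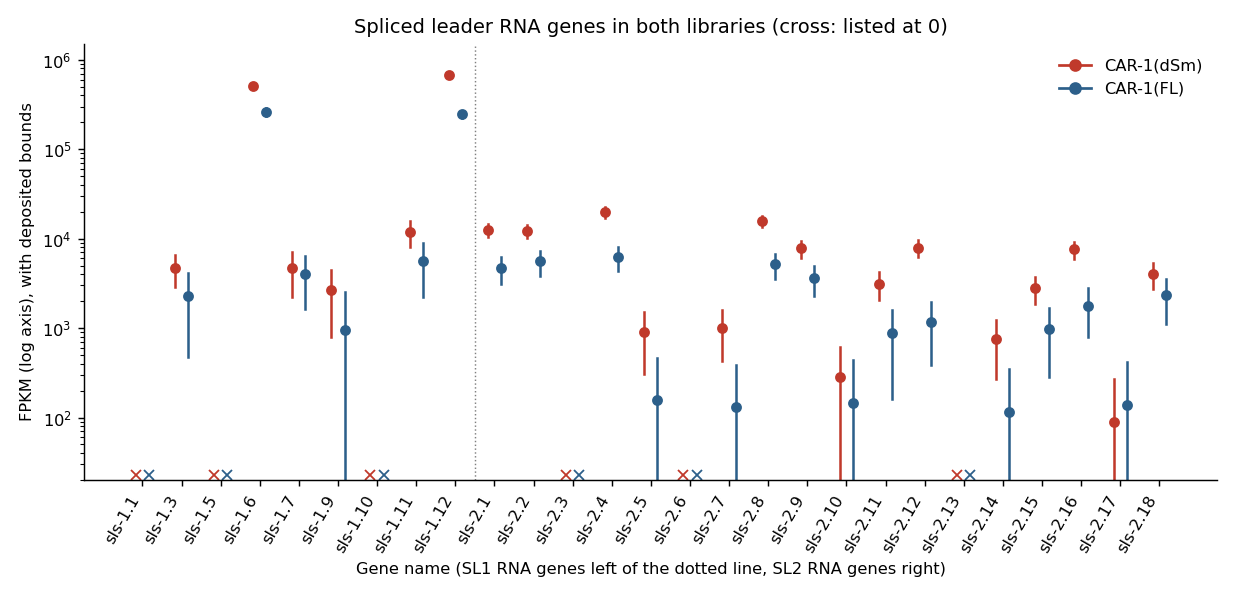
FPKM on a log axis of each SL1 and SL2 RNA gene name in CAR-1(dSm) (red, left of each pair) and CAR-1(FL) (blue), with the deposited bounds as bars; a bar that reaches the lower edge has a bound below the axis, and crosses mark names listed at 0. Of the 15 SL2 names with a value, 14 were higher in CAR-1(dSm) and sls-2.17 was lower.

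The authors' deposited table of their own comparison, whose FPKM values are on another scale, gave 16 SL2 genes a usable status and a positive fold of CAR-1(dSm) over CAR-1(FL) for 15 of them. In the authors' deposited table sls-2.4 had a p-value of 0.0008, sls-2.8 one of 0.00115 and sls-2.12 one of 0.00215. The lowest q-value of any member in the authors' deposited table was 0.419, and none of the 41560 genes was marked significant there.

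The peak lists are a second readout, with read numbers of their own. The authors called peaks per library and gave each a −log10 p and a log2 ratio of that library to the other one. Of the 18 SL2 loci, 15 had a peak in the CAR-1(dSm) list and 13 had one in the CAR-1(FL) list. In the CAR-1(dSm) list 14 of these 15 loci had a peak with a −log10 p of at least 3, where 14% of 878 loci of 60 to 200 bases with a listed peak had one. The exception was sls-2.13, at 2.01. In the CAR-1(FL) list no SL2 peak reached a −log10 p of 3 (14.7% of those 878 loci had such a peak there), and all 14 had a −log10 p of 0. That value goes with their negative fold of CAR-1(FL) over CAR-1(dSm). Every member peak with a negative fold of its own library had a −log10 p of 0.

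Every SL2 peak of either list was higher in CAR-1(dSm), by the authors' fold. Both lists set the same libraries against each other, so they are not independent. The 23 peaks of the CAR-1(dSm) list had log2 folds of 0.88 to 2.17, and the 14 of the CAR-1(FL) list, turned to CAR-1(dSm) over CAR-1(FL), had 0.92 to 2.25. The median over both lists was 1.26, where the median over all listed peaks was 0.21. Over all peaks of the CAR-1(dSm) list that median was 0.36, and over all of the CAR-1(FL) list it was −0.01. A positive fold was thus common among all listed peaks, and its share was not counted. By peaks, 22 of the 23 in the CAR-1(dSm) list had a −log10 p of at least 3, against 2.75% of all 105255 peaks in that list. In the CAR-1(FL) list 0.799% of all 77986 peaks did.

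The read numbers of both libraries could be recovered for all 23 peaks of the CAR-1(dSm) list from the fold and the p, and folds below are per total reads, with exact Clopper-Pearson 95% intervals that cover counting error only. The peak with the highest −log10 p, 82.7, lay on sls-2.4 with 2058 reads in CAR-1(dSm), against 649 in CAR-1(FL), 2.33-fold (2.13 to 2.55). The sls-2.2 peak had 944 reads in CAR-1(dSm), against 340 in CAR-1(FL), 2.04-fold. These were the loci with the most reads, and the folds of both exceeded their counting error.

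sls-2.9 had 917 peak reads in CAR-1(dSm), against 305 in CAR-1(FL), 2.21-fold. sls-2.1 had 669 in CAR-1(dSm), against 208 in CAR-1(FL), 2.36-fold. sls-2.7 had 569 in CAR-1(dSm), against 131 in CAR-1(FL), 3.19-fold. For sls-2.7 the peak and the FPKM, whose bounds lay apart on 1 fragment in CAR-1(FL), gave the same direction.

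The sls-2.12 peak had 434 reads in CAR-1(dSm), against 116 in CAR-1(FL), 2.75-fold (2.24 to 3.41), a smaller fold than the 6.81 of its FPKM. sls-2.16 had 348 in CAR-1(dSm), against 107 in CAR-1(FL), 2.39-fold, also below its FPKM fold. The highest folds were those of sls-2.10, with 55 reads in CAR-1(dSm), against 9 in CAR-1(FL) (4.49-fold), and of sls-2.11, with 109 in CAR-1(dSm), against 18 in CAR-1(FL) (4.45-fold). These loci, with sls-2.13 at 39 reads in CAR-1(dSm), against 12 in CAR-1(FL), had the fewest CAR-1(FL) reads.

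sls-2.17, lower in CAR-1(dSm) by FPKM, was higher by its peak, with 162 reads in CAR-1(dSm), against 62 in CAR-1(FL), 1.92-fold. sls-2.3, listed at 0 in the expression tables, had 198 peak reads in CAR-1(dSm), against 53 in CAR-1(FL). Over the 15 loci the median fold was 2.39, with a range of 1.84 to 4.49, and all 15 intervals lay above 1. Each locus stands here by its CAR-1(dSm)-list peak with the highest −log10 p. That p scores CAR-1(dSm) over CAR-1(FL), so the choice leans toward CAR-1(dSm), and the intervals do not cover it. No 2 peaks of the CAR-1(dSm) list on SL2 loci shared the same pair of read numbers.

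**Figure D2:**
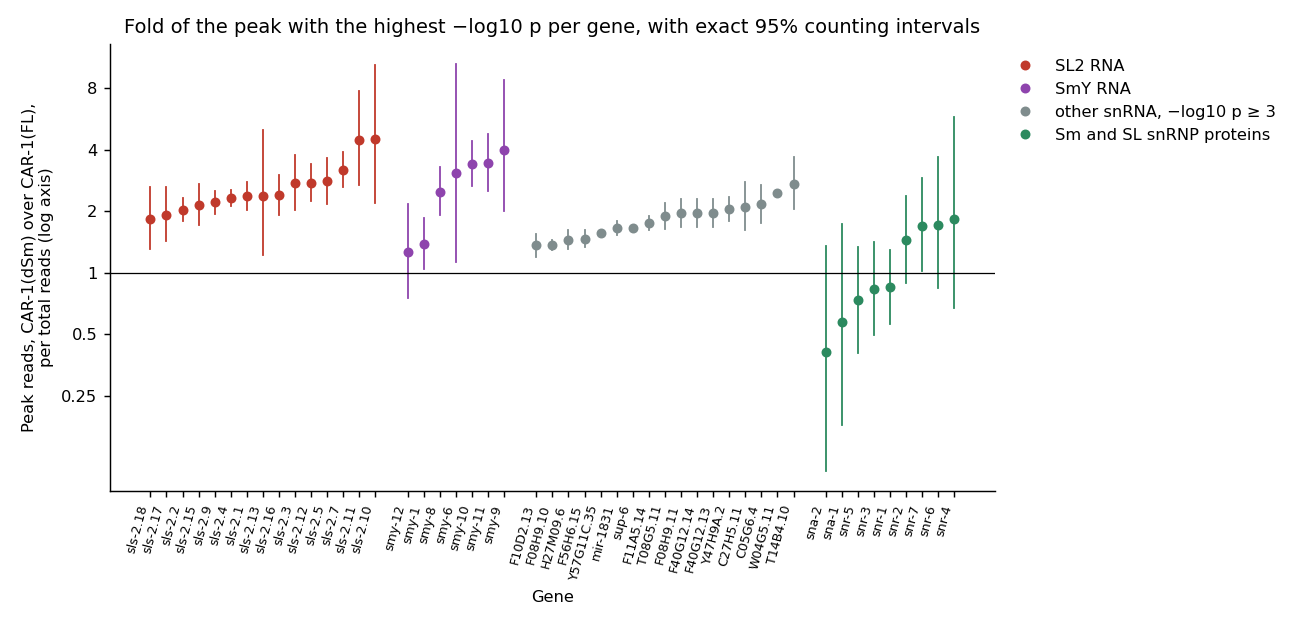
Fold of CAR-1(dSm) over CAR-1(FL), per total reads on a log axis, of the listed peak with the highest −log10 p on each gene, with exact 95% counting intervals; 3 points among the other snRNA genes have no interval because their −log10 p is capped at 400. Points of SL2, SmY and other snRNA genes are peaks of the CAR-1(dSm) list, the other snRNA genes only at a −log10 p of at least 3. Points of the protein genes are peaks of either list, so their sides of 1 are not on the same footing. The SL2 points run from 1.84 to 4.49, the SmY points from 1.26 to 3.97, and the protein genes lie on both sides of 1.

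Peaks lay mostly in the part of the SL2 RNA behind the leader. Counted from the 5′ end of the RNA, on the strand given by the peaks, the first 22 bases are the leader. Of the 23 peaks listed for CAR-1(dSm), 21 began after it. The leader was touched by 1 peak of sls-2.5 (positions 5 to 72) and 1 of sls-2.15 (9 to 51), and likewise by 1 peak of each gene in the CAR-1(FL) list, where 12 of 14 began after the leader.

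The strongest peak of sls-2.4 covered positions 71 to 102 of the RNA, that of sls-2.9 positions 68 to 97, that of sls-2.12 positions 68 to 95 and that of sls-2.1 positions 70 to 97. These peaks end near the 3′ end of an RNA of 109 bases. Over the 15 strongest peaks the median centre was position 77.5, with 83.5 for the 9 loci on the plus strand and 65.3 for the 6 on the minus strand. Where in a read the crosslink lies was not part of the peak lists.

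**Figure D3:**
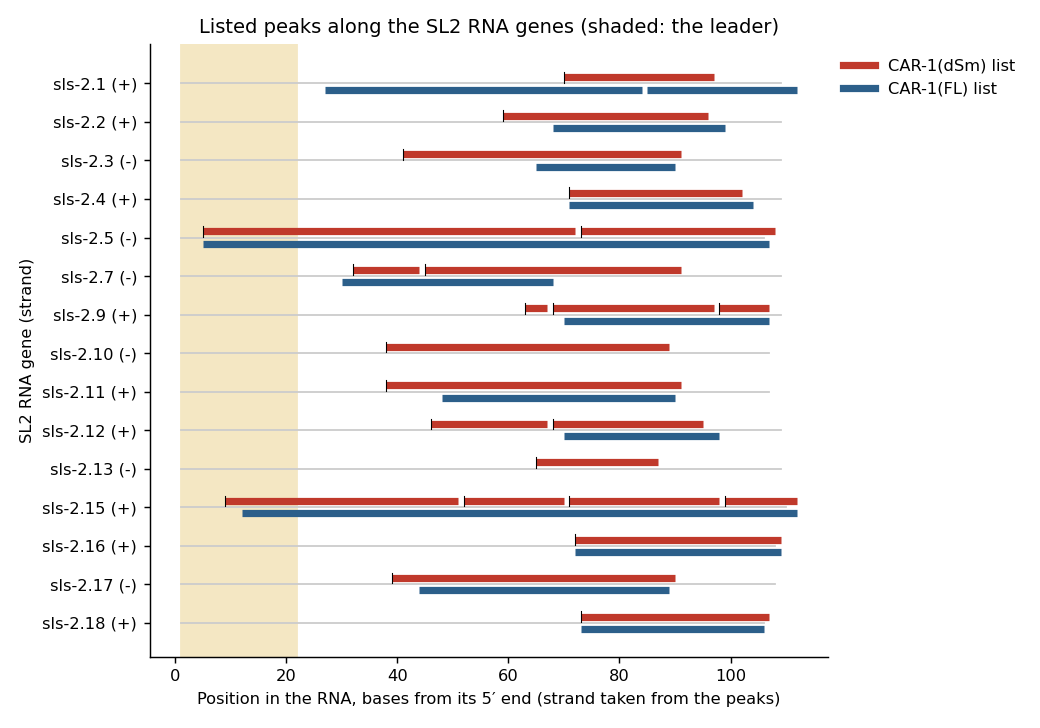
Positions of the listed peaks along each SL2 RNA gene, in bases from the 5′ end, with peaks of the CAR-1(dSm) list in red above and those of the CAR-1(FL) list in blue below; grey lines are the genes, black ticks mark where a red peak starts, and shading marks the 22-base leader. The leader is reached by peaks of sls-2.5 and sls-2.15 alone.

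The readouts differed by strand. The 9 plus-strand loci with a peak held 32.7 to 208 implied fragments in CAR-1(dSm), against 6 to 46.1 in CAR-1(FL). The 6 minus-strand loci held 0 to 11.9 in CAR-1(dSm), against 0 to 1 in CAR-1(FL). Their strongest peaks nevertheless had 39 to 569 reads in CAR-1(dSm), beside 109 to 2058 on the plus strand. In CAR-1(dSm) peak reads exceeded implied fragments 3.04-fold to 10.1-fold on the plus strand and 18.3-fold to 162-fold at the minus-strand loci with a fragment. The minus-strand loci were sls-2.3, sls-2.5, sls-2.7, sls-2.10, sls-2.13 and sls-2.17, and the cause of their low FPKM beside these peak reads was not tested. The strongest peaks had a median fold of 2.33 on the plus strand and 2.77 on the minus strand, with ranges of 1.84 to 4.45 and 1.92 to 4.49 that overlapped.

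Some SL2 loci share their place with other names. sls-2.5, sls-2.16 and sls-2.18 lie within the span of glr-2, a glutamate receptor gene, which had an FPKM of 0.0465 in CAR-1(dSm), and was listed at 0 in CAR-1(FL). sls-2.14 and sls-2.15 lie within W09D6.5, with 2.90 in CAR-1(dSm), against 3.49 in CAR-1(FL), and sls-2.11 within daf-10. These host genes had low values in both libraries, and W09D6.5 had a fold of 0.830, on the other side of 1 from the SL2 RNAs inside it. sls-2.3 is overlapped by the non-coding name C17C3.22, which had an FPKM of 384 in CAR-1(dSm), against 76.8 in CAR-1(FL). How fragments were split between both names was not tested. sls-2.8 and sls-2.14 had no listed peak in either list although sls-2.8 had the second highest FPKM in CAR-1(dSm), and sls-2.6 had neither a peak nor an FPKM above 0.

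The SL1 RNA genes lie in tandem repeats with the 5S rRNA genes on chromosome V. The tables gave 31 rows with 9 SL1 names at 12 copies between 17118130 and 17132083, and the same name stood at several copies (sls-1.12 at 9). Names and copies therefore do not match 1 to 1, and the copies are known to be nearly identical, so the split of fragments among them is uncertain. Of the 6 SL1 names measured, 4 were higher in CAR-1(dSm) by 1 log2 unit or more and 2 lay within 1 unit, with a median of 1.06. These 4 include sls-1.12, whose FPKM fold overstates a difference scaled to depth, as set out below. SL1 held 2321 fragments in CAR-1(dSm), 0.629% of all, and 957 in CAR-1(FL), 0.409%, a 1.54-fold difference in share.

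sls-1.12, summed over its rows, had an FPKM of 670910 (633128 to 708691) in CAR-1(dSm), against 247695 (224833 to 270556) in CAR-1(FL), 2.71-fold. sls-1.6 had 510416 (477386 to 543447) in CAR-1(dSm), against 260668 (236244 to 285093) in CAR-1(FL), 1.96-fold. Both names had bounds apart, and both draw nearly all of their fragments from the first copy, at 17118130 to 17118227. That copy held 2155 fragments in CAR-1(dSm), against 906 in CAR-1(FL). An implied fragment was worth 539 FPKM on sls-1.12 in CAR-1(dSm), against 528 in CAR-1(FL). On sls-1.6 it was worth 535 in CAR-1(dSm), against 574 in CAR-1(FL). These values differ less between the libraries than those of sls-2.4. All implied fragments were 1.58-fold more in CAR-1(dSm), and on sls-2.4 and snr-2 a fragment was worth less FPKM there. The FPKM of sls-1.12 and sls-1.6 was thus not scaled to depth in the same way, and why was not tested. The FPKM folds of both SL1 names are therefore above the 1.54-fold difference in the SL1 share of fragments. They overstate a difference scaled to depth, and the log2 differences and bounds of both names carry the same limit.

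The other 9 copies with fragments held 166 together in CAR-1(dSm), against 50.8 in CAR-1(FL), and summed FPKM was 1.78-fold to 2.42-fold higher in CAR-1(dSm) at each of the 9. The first copy, at 2.32-fold by summed FPKM, lay in that range, but its FPKM carries the limit on depth given above for sls-1.6 and sls-1.12. By implied fragments, not scaled to depth, its ratio of 2.379 lay just below the 2.384 to 4.267 of the other 9. By name, sls-1.11 had 11920 in CAR-1(dSm), against 5627 in CAR-1(FL), sls-1.3 had 4731 in CAR-1(dSm), against 2291 in CAR-1(FL), and sls-1.7 had 4643 in CAR-1(dSm), against 4034 in CAR-1(FL). Bounds of these overlapped between the libraries, as did those of sls-1.9, with 2632 in CAR-1(dSm), against 960 in CAR-1(FL). For sls-1.11 the authors' deposited table goes the other way, with 1010 in CAR-1(dSm), against 1517 in CAR-1(FL).

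No listed peak of either library overlapped any of the 31 SL1 rows, so the peak reads give no second readout for SL1. The 5S rRNA names with a value above 0 lie in and just before the SL1 copies, and went the other way by FPKM. rrn-4.4 had 163979 in CAR-1(dSm), against 322525 in CAR-1(FL), and rrn-4.5 had 136091 in CAR-1(dSm), against 275083 in CAR-1(FL). Of these, rrn-4.4 (17118813 to 17118911) lies between SL1 copies and the quoted rrn-4.5 row (17115879 to 17115977) before the first. The only listed peaks in the repeats lay over another row named rrn-4.5 (17119989 to 17120087), which was listed at 0 in both libraries, with 665 reads in CAR-1(dSm), against 393 in CAR-1(FL), 1.24-fold.

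The SL RNAs were set beside other loci of like length. Among loci of 96 to 120 bases with at least 20 implied fragments summed over the libraries and a value above 0 in both, all 10 SL2 genes were higher in CAR-1(dSm), with a median difference of 1.56 log2 units. The 3 SL1 rows, of which those of sls-1.6 and sls-1.12 overlap, had a median of 1.05 and the 4 5S rRNA names a median of −0.996. The rows of sls-1.6 and sls-1.12 carry the limit on depth given above. Of the 16 other rows, of 13 names that are mostly snoRNAs and other non-coding RNAs, 2 were higher in CAR-1(dSm) and 14 lower, with a median of −0.50. 5 of the 10 SL2 genes and 1 of the 3 SL1 rows reached 20 fragments in CAR-1(dSm) alone, so these counts are a description. With at least 20 fragments in each library, a filter added after the values were seen, 5 SL2 genes were left, all higher in CAR-1(dSm), with a median of 1.41 and a range of 1.10 to 1.67. Of the 7 other loci left, 1 was higher and 6 were lower, with a median of −1.04.

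**Figure D4:**
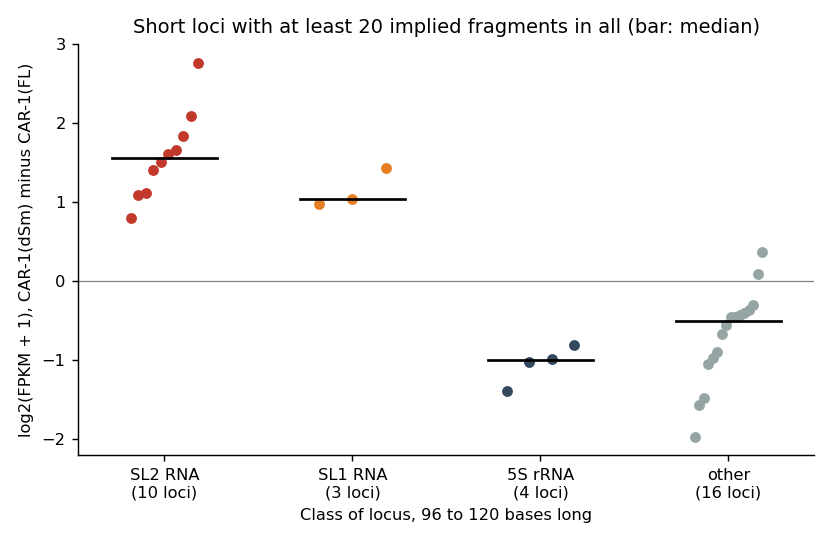
Difference in log2(FPKM + 1), CAR-1(dSm) minus CAR-1(FL), of loci 96 to 120 bases long with at least 20 implied fragments summed over the libraries, by class, with the median as a bar. SL2 genes run from 0.80 to 2.77 and the 16 other rows from −1.96 to 0.37. Of these, 5 of the 10 SL2 genes and 4 of the 16 other rows reached 20 fragments in CAR-1(dSm) alone. The filter leaves out measured SL2 genes with few fragments, among them sls-2.17 at −0.61, the only one lower in CAR-1(dSm).

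The Sm proteins are the building blocks of the ring on SL and U snRNAs: snr-1 encodes SmD3, snr-2 SmB, snr-3 SmD1, snr-4 SmD2, snr-5 SmF, snr-6 SmE and snr-7 SmG. Their messages were recovered at low levels, with 57.1 implied fragments in CAR-1(dSm), against 44.0 in CAR-1(FL) over all 7. Of the 7, 1 stood 1 log2 unit or more above its CAR-1(FL) value, 2 stood as far below and 4 lay within 1 unit, and no bounds lay apart. The median difference was 0.17.

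snr-1 (chromosome IV, 17088024 to 17088535) had an FPKM of 8.07 (3.76 to 12.4) in CAR-1(dSm), against 17.7 (9.78 to 25.6) in CAR-1(FL), a difference of −1.04 log2 units. snr-2 had 12.01 in CAR-1(dSm), against 10.5 in CAR-1(FL). snr-7 had 21.2 (6.21 to 36.2) in CAR-1(dSm), against 12.2 (0 to 26.3) in CAR-1(FL). These 3 genes hold most of the fragments of the group, and each pair of bounds overlapped.

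snr-5 had an FPKM of 3.83 in CAR-1(dSm), against 5.88 in CAR-1(FL), and snr-4 had 1.57 in CAR-1(dSm), against 1.20 in CAR-1(FL). snr-6 had 1.61 in CAR-1(dSm), against 4.93 in CAR-1(FL), on 1 fragment in CAR-1(dSm). snr-3 had 3.38 in CAR-1(dSm), on 2.07 fragments, and was listed at 0 in CAR-1(FL). Differences of these 4 genes rest on fewer than 3 fragments per library and are not resolved at this depth.

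**Figure D5:**
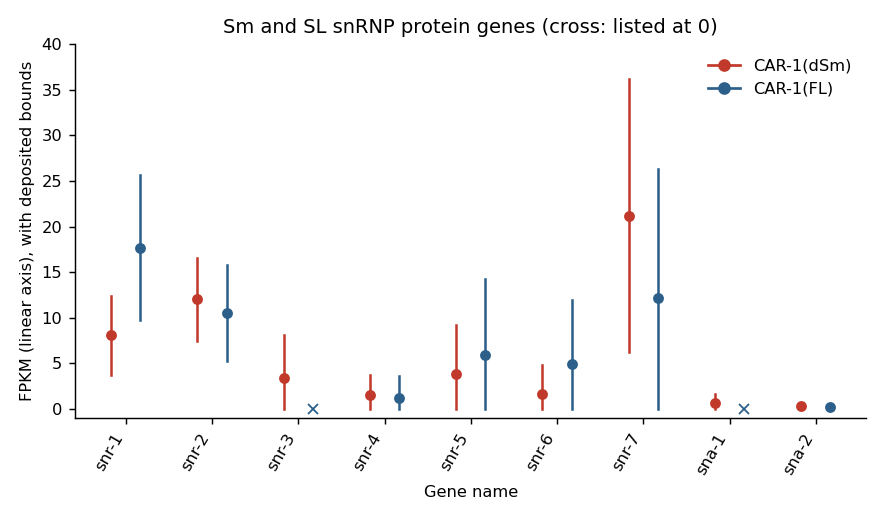
FPKM of the Sm protein genes and of sna-1 and sna-2 in CAR-1(dSm) (red, left of each pair) and CAR-1(FL) (blue), on a linear axis with the deposited bounds as bars and crosses for values listed at 0. Bounds overlap for snr-1, snr-2 and snr-7, the genes with the most fragments.

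The Sm protein genes had 23 peaks in the CAR-1(dSm) list and 21 in the CAR-1(FL) list, and none had a −log10 p of at least 3 in either, with maxima of 1.36 and 0.465. The median log2 fold over both lists was 0.09, beside 0.21 for all listed peaks. The peak with the highest −log10 p lay on snr-7, with 53 reads in CAR-1(dSm), against 23 in CAR-1(FL), 1.69-fold (1.02 to 2.90). On snr-1 the peak with the highest −log10 p had 52 reads in CAR-1(dSm), against 45 in CAR-1(FL), 0.850-fold (0.559 to 1.296), and 3 of its 5 peaks had a negative fold, the direction of its FPKM. The snr-1 peak with the most recovered reads, 82 in CAR-1(dSm), against 55 in CAR-1(FL), was at 1.10-fold (0.77 to 1.57), and both intervals include 1. All 5 peaks of snr-7 and 7 of the 8 of snr-6 had a positive fold, and for the other Sm genes folds of both signs were listed.

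sna-1 and sna-2 were barely recovered. sna-1 had an FPKM of 0.664 in CAR-1(dSm) and a listed 0 in CAR-1(FL), and sna-2 had 0.328 in CAR-1(dSm), against 0.201 in CAR-1(FL). Their 10 peaks in the CAR-1(dSm) list and 16 in the CAR-1(FL) list all had a −log10 p below 3, with a median log2 fold of −0.44.

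Genes that act with the members were read from lists. Of the Sm ring assembly and cap hypermethylation list, 5 of 6 genes were in the tables and 2 were measured, of which smi-1, the SMN partner Gemin2, had an FPKM of 1.47 in CAR-1(dSm), and was listed at 0 in CAR-1(FL). Of the U snRNP and 3′ splice site list, 15 of 17 were in the tables and 8 were measured, of which rnp-2, a U1 snRNP protein gene, alone was 1 unit or more apart, with an FPKM of 2.84 in CAR-1(dSm), against 0.870 in CAR-1(FL). prp-8, the large U5 protein, had 3.09 in CAR-1(dSm), against 3.36 in CAR-1(FL), and prp-6, another U5 protein, had 2.13 in CAR-1(dSm), against 1.86 in CAR-1(FL). The list's median difference was −0.09, near that of all measured genes.

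Of the 9 genes for the 3′ ends of operon messages, 3 were measured and none was 1 unit apart. The nuclear exonuclease gene xrn-2 had an FPKM of 2.71 in CAR-1(dSm), against 3.70 in CAR-1(FL), and fipp-1, for a cleavage and polyadenylation factor, had 2.28 in CAR-1(dSm), against 2.56 in CAR-1(FL). suf-1 had 1.17 in CAR-1(dSm), against 0.808 in CAR-1(FL). No gene of these 3 lists had bounds apart between the libraries.

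Other small nuclear RNAs, though not all, carry an Sm ring too, and the RefSeq type snRNA does not tell which. Of 87 further names so typed, SmY RNAs among them, 49 were listed at 0 in both libraries and 38 were measured. Of these, 14 were higher in CAR-1(dSm) by 1 log2 unit or more and 5 were lower by as much. Their median was 0.59, below the 1.61 of SL2. Of the 14, 7 were listed at 0 in CAR-1(FL), on at most 6.19 fragments in CAR-1(dSm). All 5 lower names were listed at 0 in CAR-1(dSm), on at most 7.96 fragments in CAR-1(FL). These counts therefore carry little weight. W04G5.11, the name with the most fragments, had an FPKM of 12667 in CAR-1(dSm), against 7780 in CAR-1(FL), and F40G12.13 had 12639 in CAR-1(dSm), against 8391 in CAR-1(FL). Bounds of both lay apart, at 1.63-fold and 1.51-fold.

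By their strongest peak in the CAR-1(dSm) list, 17 of 46 such names outside the SmY RNAs had a −log10 p of at least 3. Over all 46 the median fold was 1.46, with a range of 0.327 to 2.73, beside the 2.39 of the 15 SL2 loci. Among the 17, which that p selects toward CAR-1(dSm), the median was 1.89 and the range 1.36 to 2.73. The fold was at least 2 for 5 of the 17, and for 12 of the 14 SL2 loci past the same threshold. Some of these snRNA names were given 1 and the same peak, so they are not independent values. F08H9.11, F40G12.13 and F40G12.14 shared a peak with 622 reads in CAR-1(dSm), against 233 in CAR-1(FL). F32D1.12, F54D8.7 and K09B11.12 shared another, at 0.399-fold. Such a peak counts once per name in the counts and medians above.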

How the data were processed

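The members, lists and thresholds were chosen with earlier results of these data known. Per the submitters' processing notes, cutadapt, UMI-tools, STAR, SAMtools and the build ce10 were used; peak caller, gene annotation and treatment of multi-mapping reads: not given in the sources used here. FPKM values with a lower and an upper bound were deposited per library in the Cufflinks layout, per the file headers. The bounds lie 2 standard errors from the value, which gives the implied fragments. Rows of 1 name were summed, except in the comparison by copy. The authors deposited 2 peak lists with a −log10 p (capped at 400) and a log2 fold of the library over the other. Both scores are the authors' and were read from the values. Reads were recovered as the whole numbers whose fold and p, under Fisher's exact test or a Yates-corrected chi-square, match within a relative tolerance of 0.003, with a ratio of total reads of 1.36. The authors' deposited comparison table gives FPKM, a log2 fold, a p-value and a q-value. Peaks were assigned by 1 base of overlap without strand, which the tables do not give. Names were matched to RefSeq (WBcel235) for gene types only, for 39306 of 41560 names. No sequences are printed and exons are not described. Every member is accounted for; list genes are named at 20 or more implied fragments, at most 4 per list, or where a count of 1 to 5 was given, after values were seen; SmY RNAs and other short loci were also chosen after values were seen. Recovery and counting were tested on simulated data. Python 3.11.15, pandas 2.3.3, numpy 2.4.6 and scipy 1.17.1 were used. Alternatives were the pseudocount, the FPKM minimum, rescaling, the authors' comparison table, the first row of a name, and the overlap, −log10 p and choice of peaks.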

Additional observations from a re-analysis of the deposited data

How the results depend on the processing

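No paired analysis was possible because there was 1 library per form. Of the results that answer a comparison, 46 values under the alternatives moved little and 17 moved, and of the single genes and lists 177 moved little, 11 moved and 1 reversed. SL2 differences were positive for 14 of 15 measured genes with a pseudocount of 0.1 or 5, after rescaling, with the first row of a name and in the authors' deposited table. The reversed value was sls-1.11, at −0.59 in the authors' deposited table. Members lower in CAR-1(dSm) by 1 unit or more numbered 0 with a pseudocount of 5, 1 after rescaling and 1 at an FPKM of at least 5. Of all genes, those higher in CAR-1(dSm) by 1 unit or more numbered 298 with a pseudocount of 5, 2034 in the authors' deposited table and 338 at an FPKM of at least 5; those lower by as much numbered 260, 1875 and 309. At a −log10 p of at least 3, the peaks left were 0 in the CAR-1(FL) list on SL2 loci, and 0 in either list on the Sm protein genes and on sna-1 and sna-2. The median over the Sm genes' own median log2 peak folds was −0.04, and 0.53 with only the peak of highest −log10 p per gene. For sna-1 and sna-2 it was −0.30, then −1.05 with only that peak and −0.51 after subtracting the median of all peaks. Rescaling shifted all differences by 0.11 log2 units. With no replicate and few fragments on the Sm messages, differences there were not resolved at this depth.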

Other observations

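The SmY RNAs are small nematode RNAs that carry an Sm site and are found with the SL snRNP proteins. A peak of the CAR-1(dSm) list lay on 7 SmY loci, with a median fold of 3.09 and a range of 1.26 to 3.97, and 4 of the 7 had a −log10 p of at least 3. smy-10 had 358 reads in CAR-1(dSm), against 77 in CAR-1(FL), 3.42-fold (2.67 to 4.43). smy-11 had 229 reads in CAR-1(dSm), against 49 in CAR-1(FL), 3.44-fold. smy-8 had 248 reads in CAR-1(dSm), against 73 in CAR-1(FL), 2.50-fold. These 3 loci stood on the same side as the SL2 loci and within their range of folds.

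smy-9 had 54 reads in CAR-1(dSm), against 10 in CAR-1(FL), 3.97-fold. smy-1, with 147 reads in CAR-1(dSm), against 78 in CAR-1(FL), and smy-12, with 43 in CAR-1(dSm), against 25 in CAR-1(FL), had smaller folds of 1.39 and 1.26. smy-6 had 21 reads in CAR-1(dSm), against 5 in CAR-1(FL). By FPKM smy-10 had 10810 (6795 to 14824) in CAR-1(dSm), against 1143 (0 to 2763) in CAR-1(FL), with bounds apart. smy-8 and smy-12 went the other way by FPKM, against their peaks. Both were listed at 0 in CAR-1(dSm), with 3245 and 2578 in CAR-1(FL), each on 0.49 fragments. smy-6, smy-9 and smy-11 were listed at 0 in CAR-1(FL) and held 1 to 3 fragments in CAR-1(dSm). The SmY RNAs were singled out after their values were seen.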
